A study of Mus musculus with 6 samples.

Results

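RNA of 10 genes for ATP-binding cassette (ABC) transporters was measured in 4T1 cells with and without a knockout of Mki67, which encodes the proliferation marker Ki-67. The 10 were a list of symbols, Abcb1a, Abcb1b, Abcc1, Abcc3, Abcc4, Abcc5, Abcg2, Abca1, Abca3 and Abcg1, matched to the counted Ensembl IDs through the GENCODE M21 annotation. They are 10 of 54146 genes counted. The rule uses no measured value, but the list was drawn up with earlier results of these data known. 7 export drugs and conjugates, and 3 move lipids. 4T1 is an established cell line of mouse mammary carcinoma (BALB/c). Cells of KO clone 2 (genotype Mki67-/-), KO clone 1 (Mki67-/-) and wild type (WT, Mki67 not targeted) were grown in high-glucose DMEM with foetal bovine serum, and 2 libraries of total RNA depleted of ribosomal RNA were sequenced from each. Each knockout line is a single clone, so loss of Ki-67 and other differences between clones cannot be told apart. Whether the paired libraries are separate cultures is not given, so the p-values reflect no more than library-to-library spread, which may be technical.

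ABC transporters are membrane proteins that bind and hydrolyse ATP to carry a substrate across a membrane, mostly outward from the cytosol. The ABCB1, ABCC and ABCG2 proteins export hydrophobic drugs, glutathione and glucuronide conjugates or nucleotides, and they are known from tumour cells for their part in resistance to many drugs at once. ABCA1 and ABCG1 hand cholesterol and phospholipid to apolipoproteins and lipoprotein particles under control of the liver X receptors (LXR), and ABCA3 loads phospholipid into lamellar bodies of the lung.

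Gene reads came to 17103941 and 22275937 in clone 2, 22597596 and 22658499 in clone 1, and 10428970 and 16852152 in WT. Levels are CPM, read counts relative to library size after TMM scaling, on which 3 reads are worth 0.13 to 0.296 CPM. Fold changes are log2 values from edgeR's quasi-likelihood fit to all 6 libraries, given with their standard error (SE), and a call needed a Benjamini-Hochberg adjusted p under 0.05 over the 13755 genes tested. Both clone comparisons use the same WT libraries and are not independent of each other. Mki67 itself was at 46.3 ± 9.07 CPM in clone 2, 94.2 ± 11.8 CPM in clone 1 and 692 ± 63.0 CPM in WT (SD, n = 2 each). Of 12 epithelial markers 11 were tested. The summed level was 6173 to 6589 CPM in clone 2, 6161 to 6197 CPM in clone 1 and 4246 to 4876 CPM in WT. Krt5 was at 0 in every library, and the other basal keratin, Krt14, was read in all of them. Of the 11, 6 were called higher and 2 lower in clone 2, beside 25.2% and 27.9% of all genes. In clone 1, 5 were called higher and 1 lower, beside 24.5% and 26%. Krt18 and Krt7, the markers with the highest levels, were called higher in both clones. Cldn4 was called lower in both clones and Cdh1 in clone 2, and Krt8 and Krt19 were not called in either.

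In clone 2 all 10 transporters were called, 6 higher and 4 lower, where 53.1% of all tested genes were called, 25.2% higher and 27.9% lower. In clone 1, 2 were called higher, 4 lower and 4 were not called, where 50.4% of all genes were called, 24.5% higher and 26% lower. Abcb1b and Abca3 were higher in both clones, and Abcc3, Abcc5, Abcg2 and Abca1 were lower in both, where 17.8% of all genes were called higher in both and 19.8% lower in both. The median log2 fold change of the 10 was 0.45 in clone 2 and -0.27 in clone 1, against -0.023 and -0.014 over all genes tested. The transporters moved in both directions in each clone, and the share called in clone 1 was near that of all genes. Tested against a change of 1.5-fold, 2 were higher and 4 lower in clone 2, where the shares of all genes were 9.09% and 13%, and 1 was higher and 3 lower in clone 1, where they were 8.16% and 11.3%.

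**Figure D1:**
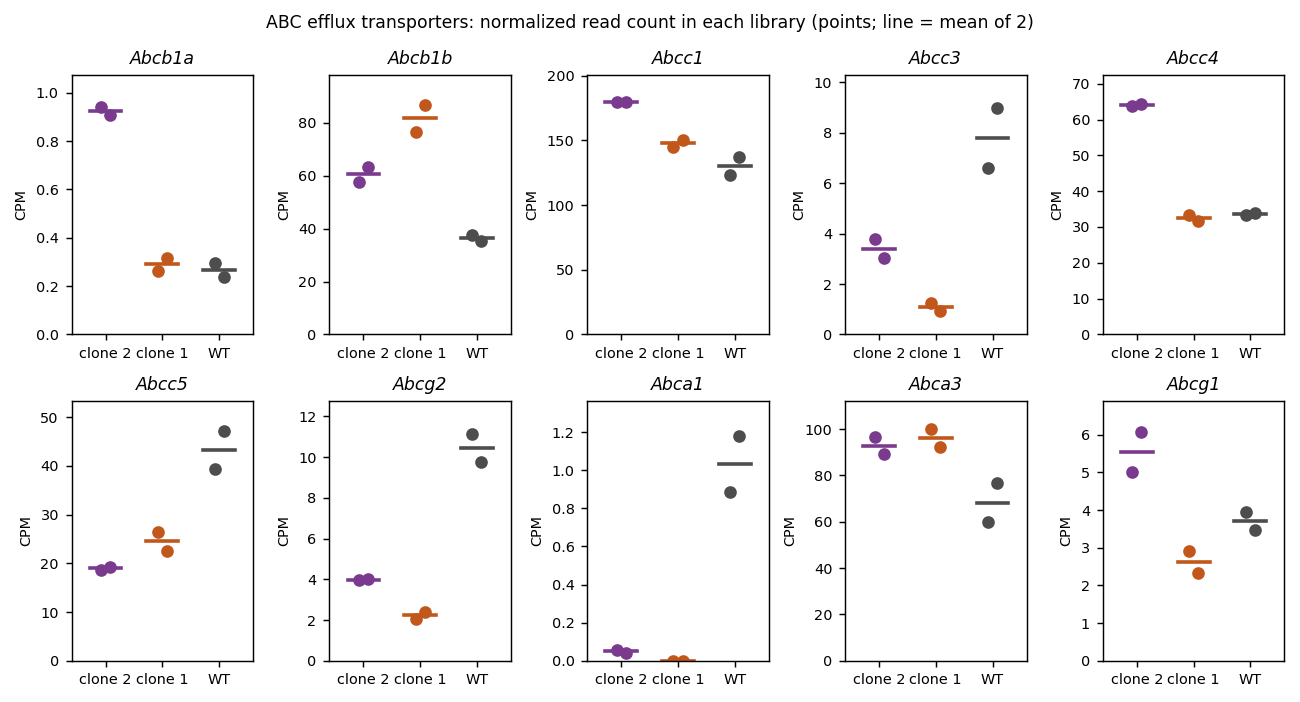
Level of each of the 10 transporters in CPM, on a linear axis of its own from 0, by group. Points are single libraries and lines the mean of 2. The Abcb1b points of both clones lie above WT, and those of Abcc3, Abcc5, Abcg2 and Abca1 lie below it.

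Per length of transcript, Abcc1 was the most abundant of the 10 in WT, at 8.63 ± 0.648 RPKM (CPM per kilobase of exon, mean ± SD, n = 2 for this and the next values). Abca3 followed at 7.28 ± 1.27 RPKM, and its libraries overlapped those of Abcc1. Abcc4 at 5.25 ± 0.0728 RPKM, Abcb1b at 4.56 ± 0.20 RPKM and Abcc5 at 4.04 ± 0.517 RPKM came next, and the last of these differed from Abcb1b by about its own SD. Abcc3 at 1.37 ± 0.294 RPKM and Abcg2 at 1.28 ± 0.122 RPKM overlapped. Abcg1, Abca1 and Abcb1a formed the low end in WT at 0.509 ± 0.0447, 0.0998 ± 0.0200 and 0.0485 ± 0.00770 RPKM, with no overlap between neighbours in that order. The same 5 genes headed the order in every group, with Abcc5 the last of these in each group and the places of the other 4 shifting. In clone 2 Abcc1 was at 11.9 ± 0.0198 RPKM, with Abcc4 at 10.02 ± 0.0668 RPKM and Abca3 at 9.91 ± 0.581 RPKM overlapping behind it. In clone 1 Abca3 at 10.3 ± 0.571 RPKM, Abcb1b at 10.2 ± 0.892 RPKM and Abcc1 at 9.79 ± 0.262 RPKM overlapped. Abcb1b thus stood beside the most abundant transporters in clone 1 and in the fourth place in both other groups.

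**Figure D2:**
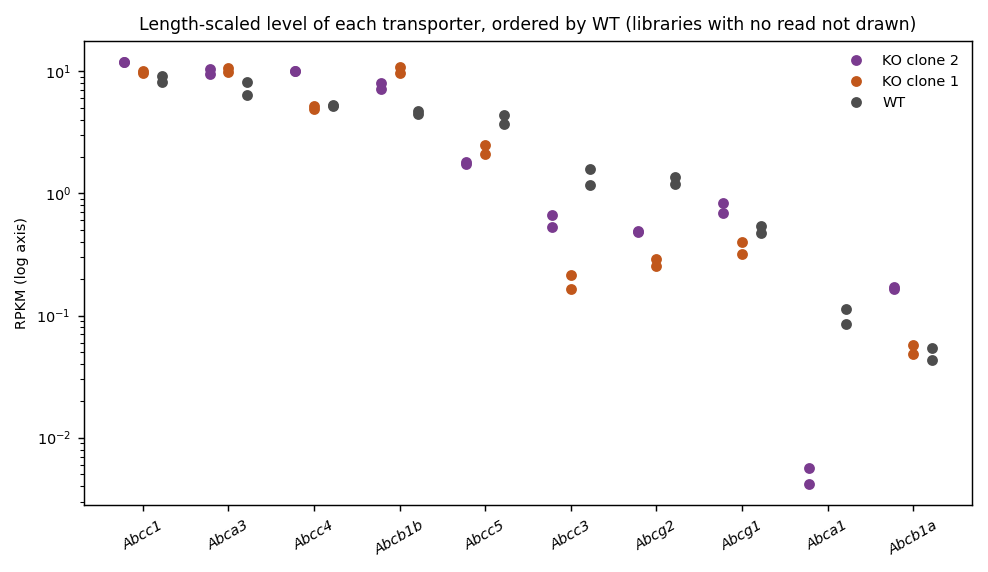
Level per kilobase of exon (RPKM, log axis) of the 10 transporters in each library, ordered by WT, with n = 2 points a group. Libraries with no read, both of clone 1 for Abca1, are not drawn. Abcc1, Abca3, Abcc4, Abcb1b and Abcc5 lie above the other 5 in every group.

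Abcb1b (ENSMUSG00000028970, chr5:8798147-8866315, plus strand, GRCm38) is 1 of the 2 mouse genes that encode P-glycoprotein, the exporter of taxanes, anthracyclines and vinca alkaloids. It had 57.6 and 63.4 CPM in clone 2, 76.7 and 86.8 CPM in clone 1, and 37.6 and 35.3 CPM in WT. All 4 knockout libraries lay above WT, clone 1 highest. Against WT its log2 fold change was 0.73 (SE 0.121, edgeR adjusted p = 0.000212) in clone 2 and 1.17 (SE 0.122, adjusted p = 4.38e-06) in clone 1, or 1.66-fold and 2.24-fold. Clone 2 was lower than clone 1 by a log2 fold change of -0.43 (SE 0.119, edgeR adjusted p = 0.0205). Dropping any 1 of the 4 clone libraries leaves 1 library in that group. The difference was then at -0.53 to -0.34 and no longer passed, where fewer of all genes were called too.

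Abcb1a (ENSMUSG00000040584, chr5:8660077-8748575, plus strand), which lies just before Abcb1b and encodes the other P-glycoprotein, was close to the floor. It had 0.942 and 0.907 CPM in clone 2, from 16 and 21 reads, 0.264 and 0.315 CPM in clone 1, from 6 and 7 reads, and 0.296 and 0.236 CPM in WT, from 3 and 4 reads. Clone 2 stood above the other groups, and clone 1 overlapped WT. Clone 2 against WT gave a log2 fold change of 1.81 (SE 0.499, edgeR adjusted p = 0.00785), and the ratio of its reads to those of WT was 3.57 with an exact 95% interval of 1.57 to 9.48 that covers counting error only. That call was lost with the DESeq2 Wald test (adjusted p = 0.0948) and without WT replicate 2 (log2 fold change 1.62). Abcb1a was below 1 CPM in every library, so a filter of 1 CPM in 2 libraries left it untested. In clone 1 the log2 fold change was 0.16 (SE 0.611, edgeR adjusted p = 0.851). Against clone 1 that of clone 2 was 1.65 (SE 0.423, edgeR adjusted p = 0.0153). With any 1 clone library dropped, which leaves 1 in that group, this difference was at 1.53 to 1.78. It did not pass then, where fewer of all genes were called too. Of the stretches of 50 bases in Abcb1a transcripts, 17.6% also occur in other genes, mostly in Abcb1b, and reads that map to both genes are counted for neither.

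The promoter of Abcb1b is shown because both clones had more of its RNA, and because the CCAAT and GC boxes of P-glycoprotein promoters are textbook elements. The 120 bases before its RefSeq start, chr5:8798027-8798146 on the plus strand of GRCm38.p6, follow with motif matches in capitals.
Abcb1b promoter: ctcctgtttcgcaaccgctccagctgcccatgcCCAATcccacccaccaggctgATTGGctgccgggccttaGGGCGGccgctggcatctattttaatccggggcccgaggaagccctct
Counting the base before the start as -1, CCAAT boxes (letters CCAAT, both strands) begin at -87 and -66 and a GC box (GGGCGG, both strands) at -48, with no overlap. CCAAT was found in 37.4% and GGGCGG in 35.7% of 32851 promoter windows of 300 bases in the same table. Nfya, a subunit of the factor NF-Y that binds CCAAT, had 58.4 and 62.3 CPM in clone 2, 62.9 and 63.2 CPM in clone 1 and 40.2 and 34.5 CPM in WT, and rose in both clones, by 0.69 and 0.76 on the log2 scale (edgeR adjusted p = 0.000325 and 0.000180). A letter match is no evidence of binding, which was not measured.

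Abcc1 (ENSMUSG00000023088, chr16:14361558-14475737, plus strand) encodes MRP1, which exports glutathione conjugates and anthracyclines. It had 179.8 and 179.4 CPM in clone 2, 144.9 and 150.5 CPM in clone 1, and 123.3 and 137.1 CPM in WT. Every knockout library was above WT, clone 2 furthest. Its log2 fold change was 0.46 (SE 0.110, edgeR adjusted p = 0.00303) in clone 2 and 0.18 (SE 0.110, adjusted p = 0.186) in clone 1, where it did not pass the test. The difference between the clones, 0.28 (SE 0.109, adjusted p = 0.0799), did not pass either.

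Abcc4 (ENSMUSG00000032849, chr14:118482692-118706219, minus strand) encodes MRP4, an exporter of cyclic nucleotides, prostaglandins and nucleoside drugs. It had 63.7 and 64.3 CPM in clone 2, 33.4 and 31.6 CPM in clone 1, and 33.2 and 33.9 CPM in WT. Clone 2 stood alone, and clone 1 overlapped WT. This gave a log2 fold change of 0.93 (SE 0.115, edgeR adjusted p = 1.84e-05) in clone 2, or 1.91-fold, and -0.049 (SE 0.115, adjusted p = 0.751) in clone 1. Clone 2 exceeded clone 1 by 0.98 (SE 0.114, adjusted p = 0.000106), and this call held with each library left out in turn (adjusted p up to 0.00831).

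The first of 2 RefSeq promoters of Abcc4 is shown because the gene differed this much between 2 clones of 1 line, and its bases are rich in CpG. The 210 bases before its start, chr14:118706220-118706429 on the minus strand of GRCm38.p6, follow with matches in capitals.
Abcc4 promoter: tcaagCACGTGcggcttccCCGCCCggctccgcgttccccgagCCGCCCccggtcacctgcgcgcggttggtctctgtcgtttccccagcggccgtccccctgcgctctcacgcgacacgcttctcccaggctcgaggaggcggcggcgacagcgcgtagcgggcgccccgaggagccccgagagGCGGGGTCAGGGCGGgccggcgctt
An E-box (CACGTG) begins at -205, GC boxes at -191, -167 and -16, and a match to the core of the antioxidant response element (TGACNNNGC, both strands) at -25, next to the last GC box and not overlapping it. CACGTG was found in 7.15% and TGACNNNGC in 12.4% of all promoter windows. The window of 300 bases around this start held 41 CpG at 72.7% G and C, against a median of 7 CpG and 52.7% over all promoters. The other window, chr14:118676882-118677181, held 6 CpG at 47.3% G and C. Of the motifs sought, it matched only the core of the antioxidant response element. Of its closest tested neighbours, Sox21 on one side had a log2 fold change of 0.76 (edgeR adjusted p = 0.0319) in clone 2 and -1.56 (adjusted p = 0.00197) in clone 1, a difference of 2.32 between the clones (adjusted p = 0.000230). The Sox21 values rest on 44 and 79 reads in clone 2, 12 and 15 in clone 1, and 20 and 28 in WT. Dzip1 on the other side was lower in both clones, by -7.57 and -6.88 on the log2 scale. It had 6 reads in clone 2, 11 in clone 1 and 812 in WT.

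Abcc3 (ENSMUSG00000020865, chr11:94343295-94392997, minus strand) encodes MRP3, which exports glucuronides and bile salts. It had 3.77 and 3.02 CPM in clone 2, 1.23 and 0.944 CPM in clone 1, and 6.61 and 8.98 CPM in WT. The 3 groups did not overlap, with clone 1 lowest. The log2 fold change was -1.23 (SE 0.225, edgeR adjusted p = 0.000489) in clone 2, which is 2.34-fold lower, and -2.85 (SE 0.256, adjusted p = 1.18e-06) in clone 1, which is 7.20-fold lower. Clone 2 was above clone 1 by 1.62 (SE 0.268, adjusted p = 0.00136), a call kept with each library left out (adjusted p up to 0.0452).

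Abcc5 (ENSMUSG00000022822, chr16:20331303-20426394, minus strand) encodes MRP5, an exporter of cyclic nucleotides and nucleotide analogs. It had 18.7 and 19.3 CPM in clone 2, 26.4 and 22.6 CPM in clone 1, and 39.3 and 47.1 CPM in WT. The groups did not overlap, and here clone 2 was lowest. Relative to WT, the log2 fold change was -1.19 (SE 0.139, edgeR adjusted p = 1.14e-05) in clone 2 and -0.82 (SE 0.137, adjusted p = 0.000258) in clone 1. The difference between the clones, -0.37 (SE 0.138, adjusted p = 0.0723), did not pass the test.

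Abcg2 (ENSMUSG00000029802, chr6:58584523-58695676, plus strand) encodes the breast cancer resistance protein, which works as a dimer and exports topotecan, mitoxantrone and urate. It had 3.95 and 4.01 CPM in clone 2, 2.07 and 2.38 CPM in clone 1, and 11.1 and 9.74 CPM in WT. All knockout libraries were below WT and clone 1 was lowest. The log2 fold change was -1.38 (SE 0.186, edgeR adjusted p = 3.62e-05) in clone 2, or 2.61-fold lower, and -2.22 (SE 0.195, adjusted p = 9.95e-07) in clone 1, or 4.66-fold lower. Clone 2 was above clone 1 by 0.84 (SE 0.203, edgeR adjusted p = 0.0115). Without any 1 clone library, which leaves 1 in that group, the difference was at 0.73 to 0.94. It was then no longer called, where fewer of all genes were called too.

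Counted together, 4 of the 7 exporters were called higher and 3 lower in clone 2, and 1 higher, 3 lower and 3 uncalled in clone 1, beside all-gene shares of 25.2% higher and 27.9% lower in clone 2 and 24.5% and 26% in clone 1. The 3 that fell in both clones, Abcc3, Abcc5 and Abcg2, were also called lower with upper-quartile scaling, the DESeq2 Wald test, limma-voom and unstranded counts.

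**Figure D3:**
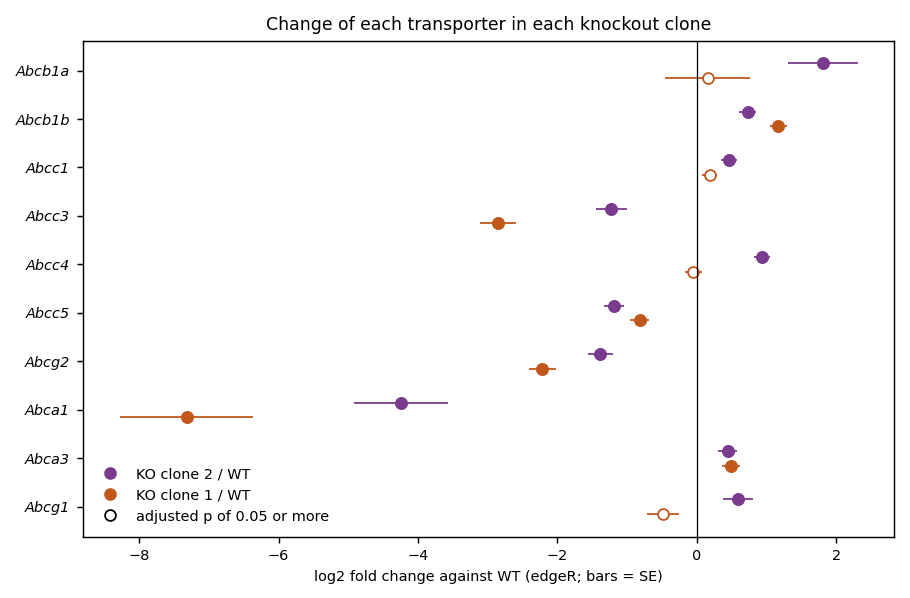
Log2 fold change of the 10 transporters in each clone against WT, with bars of 1 SE on either side and open points where the adjusted p was 0.05 or more. Abcb1b lies right of 0 in both clones, Abcc3, Abcc5, Abcg2 and Abca1 lie left of 0 in both, and Abcc4 and Abcg1 lie on different sides of 0 in the 2 clones. The Abca1 value of clone 1, which had no read, depends on the prior count of the fit.

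Abca1 (ENSMUSG00000015243, chr4:53030787-53159895, minus strand), the exporter of cholesterol to apolipoprotein A-I, was read only at a low level. Clone 2 had 1 read in each library (0.0589 and 0.0432 CPM), clone 1 had none, and WT had 9 and 20 reads (0.888 and 1.18 CPM). With a floor of 3 reads set over its libraries, clone 1 was 16.0-fold lower than WT, and the exact 95% lower limit was 12.2-fold. Clone 2 was lower than WT too. The ratio of WT to clone 2 was 21.5, with an exact 95% interval of 5.44 to 186. The fit called the gene lower in clone 2 (edgeR adjusted p = 0.000146) and clone 1 (adjusted p = 3.52e-05). It had too few reads to be tested without WT replicate 2 and under a filter of 1 CPM in 2 libraries.

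The Abca1 promoter is shown because it carries the textbook LXR element, a direct repeat with 4 bases between (DR4). The 180 bases before the RefSeq start, chr4:53159896-53160075 on the minus strand of GRCm38.p6, follow with matches in capitals.
Abca1 promoter: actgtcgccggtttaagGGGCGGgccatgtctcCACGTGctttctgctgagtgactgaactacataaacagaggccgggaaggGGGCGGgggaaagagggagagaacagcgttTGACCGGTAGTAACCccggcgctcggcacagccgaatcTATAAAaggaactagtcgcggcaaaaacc
GC boxes begin at -163 and -97, an E-box at -147, a TATA box (TATAAA) at -29, and at -67 lies a match to the DR4-like letters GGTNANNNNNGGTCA on the other strand. That pattern was found in 68 of 32851 promoters, or 0.207%, and TATAAA in 13.6%, and none of the matches shown overlap. Nr1h3 and Nr1h2, which encode LXR alpha and LXR beta, were both lower. Nr1h3 had 3.24 and 2.16 CPM in clone 2, 1.5 and 1.98 CPM in clone 1, and 4.73 and 4.31 CPM in WT, with log2 fold changes of -0.76 (edgeR adjusted p = 0.0224) and -1.37 (adjusted p = 0.000755). Nr1h2 had 41.4 and 40.1 CPM in clone 2, 37.5 and 31.9 CPM in clone 1, and 59.9 and 70.4 CPM in WT, with log2 fold changes of -0.68 (adjusted p = 0.000654) and -0.91 (adjusted p = 7.16e-05). Both genes were lower in every knockout library than in either WT library. Whether these levels bear on Abca1 was not tested.

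Abcg1 (ENSMUSG00000024030, chr17:31057675-31117988, plus strand) exports cholesterol to lipoprotein particles and is likewise an LXR target. Unlike Abca1 it was called higher in clone 2, and in clone 1 it was lower but not called. It had 5.01 and 6.09 CPM in clone 2, 2.91 and 2.34 CPM in clone 1, and 3.94 and 3.48 CPM in WT. The clones lay on opposite sides of WT, with clone 1 lowest. Its log2 fold change was 0.60 (SE 0.217, edgeR adjusted p = 0.0326) in clone 2 and -0.49 (SE 0.230, adjusted p = 0.0927) in clone 1. Clone 2 was above clone 1 by 1.08 (SE 0.211, edgeR adjusted p = 0.00352). This difference was not called without clone 1 replicate 2 (log2 fold change 0.93) or clone 2 replicate 2 (0.92), each of which leaves 1 library in its group. The call in clone 2 was lost without WT replicate 2 (adjusted p = 0.136), without clone 2 replicate 2 (0.206), without clone 1 replicate 1 (0.0501), with upper-quartile scaling (0.0628) and with DESeq2 (0.129).

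Abca3 (ENSMUSG00000024130, chr17:24351950-24410201, plus strand), the phospholipid transporter of lamellar bodies, was the most abundant of the 3 lipid transporters. It had 96.8 and 89.1 CPM in clone 2, 100 and 92.4 CPM in clone 1, and 59.9 and 76.6 CPM in WT. All knockout libraries were above WT and the clones overlapped. The log2 fold change was 0.44 (SE 0.132, edgeR adjusted p = 0.0122) in clone 2 and 0.49 (SE 0.132, adjusted p = 0.00702) in clone 1. The call in clone 2 was lost without WT replicate 1 (adjusted p = 0.0659) or clone 2 replicate 1 (0.0939), and that in clone 1 without clone 1 replicate 1 (0.0683).

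Abca3 and Abcg1 both lie on chromosome 17, whose 655 tested genes had a median log2 fold change of 0.17 in clone 2 and 0.55 in clone 1. Of 64 tested genes that start within 1000 kb of Abca3, 28 were called higher and 9 lower in clone 2, and 38 higher and 4 lower in clone 1, with medians of 0.27 and 0.54. Of 10 such genes near Abcg1, 7 were called higher and 0 lower in clone 2, and 7 higher and 2 lower in clone 1, with medians of 0.73 and 1.07. Of all genes, 25.2% were called higher in clone 2 and 24.5% in clone 1. When the median of each chromosome was removed, the log2 fold change of Abca3 was 0.28 (edgeR adjusted p = 0.0983) in clone 2 and -0.060 (adjusted p = 0.739) in clone 1, so neither call held. Abcg1 was then at 0.43 (adjusted p = 0.115) in clone 2 and -1.04 (adjusted p = 0.00235) in clone 1, where it was called lower. The part of a chromosome-wide shift in either gene was not tested further. Slc37a1, the nearest tested gene past Abcg1, was at 0.77 (edgeR adjusted p = 0.0367) in clone 2 and -1.19 (adjusted p = 0.00925) in clone 1. The difference between the clones was 1.97 (adjusted p = 0.000819), from 87 and 97 reads in clone 2 and 19 and 34 in clone 1. Glo1, the nearest tested gene before Abcg1, went the other way between the clones, at -0.34 (adjusted p = 0.0415). Of the 10 genes near Abcg1, 1 was called higher and 3 lower in clone 2 than in clone 1. The shares of all genes in that comparison were 11.3% and 10.7%.

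**Figure D4:**
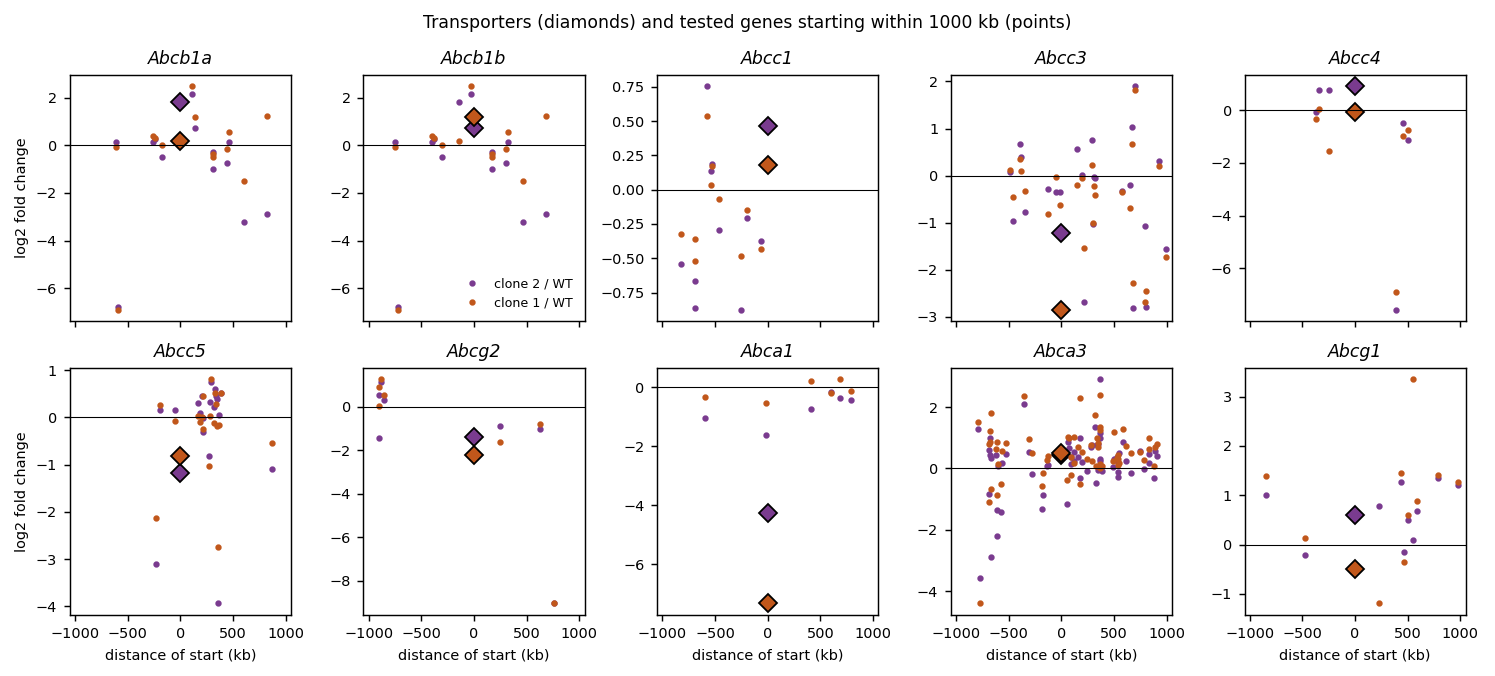
Log2 fold change in each clone of the tested genes that start within 1000 kb of each transporter (points) and of the transporter itself (diamonds), against distance from its start in kb. Axes differ between panels. Most of the 10 genes around Abcg1 lie above 0 in both clones, while Abcg1 in clone 1 lies below 0.

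At the loci of the other transporters the neighbours' medians lay between -0.90 and 0.16 in clone 2 and between -0.86 and 0.034 in clone 1. Around Abca1, 4 of 6 tested neighbours were called lower in clone 2 and 1 in clone 1, and the closest, Nipsnap3b, fell in both (log2 fold changes -1.63 and -0.53). Around Abcb1b, Gm5106, a gene on the opposite strand that overlaps it, was higher in both clones by 2.16 (edgeR adjusted p = 0.00453) and 2.50 (adjusted p = 0.00130) on the log2 scale, from 34 reads in clone 2, 48 in clone 1 and 5 in WT. Crot, the nearest tested gene past Abcb1b, was lower in both (-0.98 and -0.36).

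The summed level of 12 macrophage and leukocyte markers, 4 of them tested, was 25.3 to 29.2 CPM in clone 2, 13.0 to 13.2 CPM in clone 1 and 44.9 to 55.2 CPM in WT. The defining markers Adgre1, Fcgr3 and Cd3e were at 0 in every library and Ptprc in WT, while Cd68 and Cd74 were called lower in both clones and Csf1r higher. Cd14, which epithelial cells can also express, made up most of the clone 2 sum, with 22.4 and 19.5 CPM in clone 2, 7.01 and 7.96 CPM in clone 1, and 7.59 and 10.9 CPM in WT, and was called higher in clone 2 (edgeR adjusted p = 0.000124) and not in clone 1 (adjusted p = 0.166). The 12 fibroblast and endothelial markers, 2 of them tested and 4 at 0 in every library, summed to 27.2 to 28.9 CPM in clone 2, 24.2 to 25.2 CPM in clone 1 and 49.8 to 54.1 CPM in WT. Pdgfra made up most of the WT sum. It had 14.4 and 14.5 CPM in clone 2, 14.3 and 14.5 CPM in clone 1, and 39.4 and 39.1 CPM in WT. Pdgfra was called lower in both clones, and Egfl7, the other tested marker, in neither. Col1a1, Col1a2 and Pecam1 were at most 0.315 CPM in any library. The part of other cells in the transporter levels was not tested, and in bulk RNA fewer cells of a type and less RNA per cell cannot be told apart.

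For the mean of both clones against WT, 4 transporters were called higher and 4 lower, where 55.8% of all genes were called, 26.5% higher and 29.3% lower. Abcc1 and Abcc4, which are among those called higher for the mean, were not called in clone 1. In 3 genes all 4 knockout libraries lay above both WT libraries, and in 4 all lay below, where this held for 27.7% and 30.1% of all tested genes. Directly between the clones, 5 of the 10 were called higher and 1 lower in clone 2 than in clone 1, where 22% of all genes were called, 11.3% higher and 10.7% lower. The median of the 10 was 0.91 in that comparison, against -0.0033 over all genes. Over a change of 1.5-fold, 1 transporter was higher and 4 lower for the mean of both clones (8.56% and 12.3% of all genes), and 2 were higher and 0 lower in clone 2 than in clone 1 (1.32% and 1.18%). Only the calls of Abcc3 and Abcc4 among these 6 held with every library left out in turn. Without a clone library, which leaves 1 in its group, fewer of all genes were called between the clones too.

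The rest of the ABC family has 43 other protein-coding genes in the annotation, from mitochondrial and peroxisomal transporters to translation factors, and 17 had enough reads to be tested. In clone 2, 4 were called higher and 6 lower, and in clone 1, 3 higher and 8 lower, with median log2 fold changes of -0.15 and -0.25. Of all genes, 53.1% were called in clone 2 and 50.4% in clone 1. None of the 4 other Abcg genes and 1 of the 7 other Abcc genes was tested. Abcb10, a transporter of the inner mitochondrial membrane, rose in both clones, with 83.9 and 83.6 CPM in clone 2, 70.3 and 67.3 CPM in clone 1, and 48.3 and 54.1 CPM in WT. Abcf1, a translation factor with ABC domains, rose as well, with 186.7 and 227.2 CPM in clone 2, 237.2 and 251.3 CPM in clone 1, and 157.1 and 152.3 CPM in WT. In both genes every knockout library was above WT.

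Of the ABC genes that fell in both clones, Abca8b had no read in either clone and 1.28 and 1.48 CPM in WT. With a floor of 3 reads set over each clone, it was 18.8-fold lower in clone 2 and 21.0-fold lower in clone 1. The exact 95% lower limits of these ratios, for counting error, were 14.6 and 16.3. Tap2 and Tap1, which feed peptides to class I histocompatibility molecules, had mean log2 fold changes of -2.21 (SE 0.139, edgeR adjusted p = 2.51e-08) and -1.58 (SE 0.208, adjusted p = 2.81e-05). In these 3 genes both WT libraries stood above every knockout library.

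**Figure D5:**
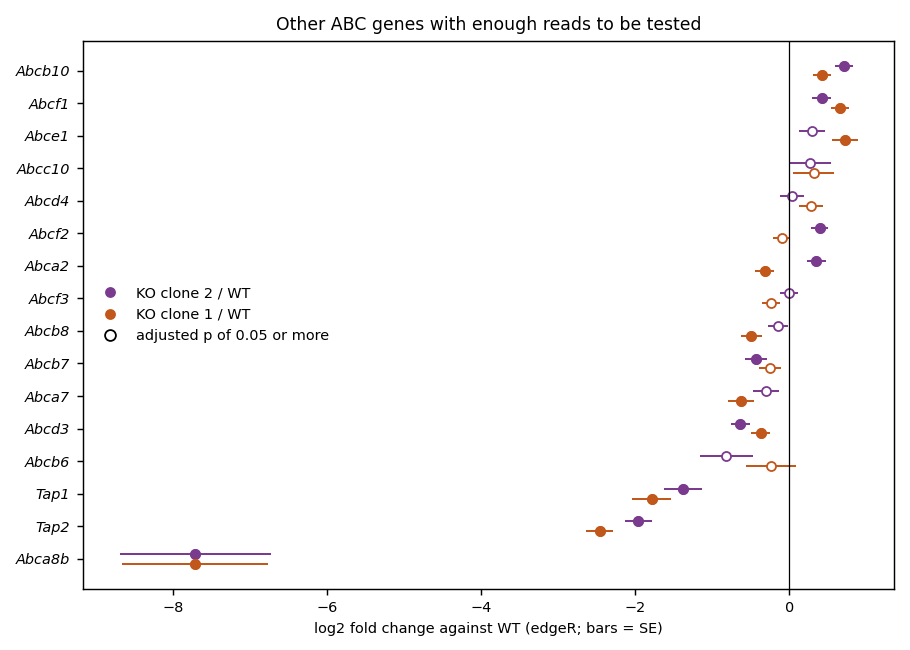
Log2 fold change in each clone against WT of the other ABC genes that were tested, all but 1 of the 17 drawn, with bars of 1 SE and open points where the adjusted p was 0.05 or more. Abca8b, with no read in either clone, depends on the prior count of the fit, and Tap2 and Tap1 lie left of 0 in both clones.

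Of 26 cholesterol efflux partners and LXR targets 21 were tested, and for the mean of both clones 4 were called higher and 11 lower, with a median of -0.39 against -0.022 over all genes, of which 26.5% were called higher and 29.3% lower. Pltp, the phospholipid transfer protein and an LXR target, had 3.12 and 3.15 CPM in clone 2, 5.24 and 3.37 CPM in clone 1, and 14.5 and 19.2 CPM in WT. Lipa, the lysosomal acid lipase, had 13.9 and 11.8 CPM in clone 2, 12.4 and 10.3 CPM in clone 1, and 26.7 and 26.3 CPM in WT. Both were lower in every knockout library. The lipoprotein receptor gene Vldlr had 1 read in clone 2, none in clone 1 and 992 in WT. With a floor of 3 reads set over clone 1, it was 549-fold lower there, and the exact 95% lower limit was 445.5-fold.

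Of 30 drug uptake carriers and exporters outside the ABC family 15 were tested, and 5 were called higher and 6 lower for the mean of both clones (median 0.15), beside 26.5% and 29.3% of all genes. The nucleoside carriers Slc29a1 and Slc29a2, which admit nucleoside drugs, were among the higher. Slc29a1 had 154.3 and 136.6 CPM in clone 2, 185.5 and 185.1 CPM in clone 1, and 64.4 and 77.8 CPM in WT. Slc29a2 had 15.2 and 15.2 CPM in clone 2, 15.6 and 16.8 CPM in clone 1, and 5.42 and 4.25 CPM in WT. Their groups did not overlap, and their mean log2 fold changes were 1.20 (SE 0.113, edgeR adjusted p = 1.14e-06) and 1.72 (SE 0.155, adjusted p = 8.05e-07). Slc31a2, a copper transporter, fell, with 4.53 and 4.10 CPM in clone 2, 6.48 and 5.26 CPM in clone 1, and 12.4 and 12.5 CPM in WT. Slco5a1 had 2 reads in clone 2, none in clone 1 and 34 in WT.

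Of 9 genes for glutathione, the cofactor and conjugate of the MRP exporters, 7 were tested, and 4 were called higher and 2 lower for the mean of both clones (median 0.32), beside 26.5% and 29.3% of all genes. Slc3a2, the shared chain of cystine and amino acid carriers, had 604.0 and 553.7 CPM in clone 2, 494.1 and 507.8 CPM in clone 1, and 240.0 and 219.7 CPM in WT. Chac1, which degrades glutathione, had 178.5 and 143.3 CPM in clone 2, 164.1 and 171.9 CPM in clone 1, and 44.9 and 27.9 CPM in WT. Gss, the glutathione synthetase, had 36.7 and 31.3 CPM in clone 2, 25.8 and 25.6 CPM in clone 1, and 16.5 and 21.8 CPM in WT. All 3 were higher in every knockout library, whereas Gclm, the modifier subunit of the first synthetic enzyme, was lower, with 39.3 and 39.5 CPM in clone 2, 41.1 and 43.5 CPM in clone 1, and 84.3 and 68.1 CPM in WT.

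Of 24 transcription factors and regulators known to act on ABC genes 19 were tested, and 4 were called higher and 7 lower for the mean of both clones (median -0.038), near the 55.8% of all genes called. Ppard, a lipid-activated receptor, rose in both clones, as did Ets1 and, as given above, Nfya. Ppard had 52.9 and 48.8 CPM in clone 2, 42.6 and 40.7 CPM in clone 1, and 14.8 and 21.5 CPM in WT. Ets1 had 239.9 and 254.6 CPM in clone 2, 229.8 and 235.0 CPM in clone 1, and 135.3 and 153.4 CPM in WT. Ahr, the receptor for aryl hydrocarbons, fell, with 12.0 and 11.0 CPM in clone 2, 14.7 and 14.3 CPM in clone 1, and 24.2 and 23.4 CPM in WT. Nfe2l2, which encodes the antioxidant factor NRF2, fell as well, with 85.9 and 90.4 CPM in clone 2, 97.0 and 101.5 CPM in clone 1, and 187.7 and 134.0 CPM in WT. Keap1, its inhibitor, was not called, with a mean log2 fold change of -0.038 (SE 0.0982, edgeR adjusted p = 0.764).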

How the data were processed

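Total RNA of 6 libraries was depleted of ribosomal RNA and sequenced as stranded libraries, per the labels' protocols. Reads were aligned with STAR 2.6.0c to GRCm38, per the submitters' processing notes. The authors deposited a table of read counts per Ensembl gene for each library, with no normalization. The reverse-strand column was used because it held 92.32% to 95.71% of stranded gene reads, the rows without a gene were dropped, and 43.24% to 53.09% of reads were assigned to a gene. Reads that map to several places are not counted. GENCODE M21 gave symbols for 54079 IDs and left 67 unmatched.

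Genes kept by filterByExpr were fitted in edgeR 4.0.16 (R 4.3.3) with TMM scaling, a robust quasi-likelihood model with 1 term per group, 3 residual degrees of freedom and Benjamini-Hochberg adjustment. The biological coefficient of variation was 10.3%. Libraries of a group were checked for copies, and their chi-square over its degrees of freedom was 17.71 to 78.82, above the sampling noise. CPM and RPKM were computed here, RPKM over the union of exons. Alternatives used limma 3.58.1 and DESeq2 1.42.0. The fit was also run on simulated counts as a check of the code only, with far fewer changed genes than were called here. Promoters came from RefSeq on GRCm38.p6, where 7 of the 10 transporters have an entry. The transporters and gene lists were chosen with earlier results of these data known. Named were all 10 transporters, up to 4 other ABC genes in each direction by size of the mean change, up to 4 genes of each list by adjusted p if called in both clones in 1 direction, Nr1h2, Nr1h3, Nfe2l2, Keap1, Mki67 and the nearest tested neighbours. The results of 2 genes that this rule names are not reported here. Intervals and floors cover counting error only.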

Additional observations from a re-analysis of the deposited data

Results flagged for a closer look

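The change against WT differed between the clones, by the test of clone 2 against clone 1, for 6 transporters. In log2 fold change, clone 2 relative to clone 1 was at 1.65 for Abcb1a, -0.43 for Abcb1b, 1.62 for Abcc3, 0.98 for Abcc4, 0.84 for Abcg2 and 1.08 for Abcg1. Abcb1b was higher than WT in both clones, and Abcc3 and Abcg2 were lower in both, so for these 3 genes the difference is one of size.

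Reads on the strand opposite to Abcb1b, which the main fit did not count for Abcb1b, came to 43 over the 4 knockout libraries. There were 6 and 11 in clone 2, 16 and 10 in clone 1, and 0 and 2 in WT. In CPM these were 0.353 and 0.475 in clone 2, 0.705 and 0.450 in clone 1, and 0 and 0.118 in WT. Gm5106 overlaps Abcb1b on that strand and was higher in both clones, and its part in these reads was not tested.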

How the results depend on the processing

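Over the 10 transporters and 4 comparisons, 596 values under an alternative kept their direction and side of the threshold, 42 lost and 7 gained a call, and 11 changed sign. Abcb1b higher, and Abcc3, Abcc5 and Abcg2 lower, kept their calls in both clones under all alternatives except a test against a 1.5-fold change, which lost Abcb1b in clone 2 (edgeR adjusted p = 0.146) and Abcc5 in clone 1 (0.0724).

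The test against a 1.5-fold change called 2 transporters higher in clone 2, 1 in clone 1, 1 for the mean of both clones and 2 between the clones, with 0 lower between the clones. It called none of the other ABC genes higher (0 in clone 2, 0 in clone 1, 0 for the mean, against 4, 3 and 3 by the test of any change) and 4 lower in clone 1 and 4 for the mean. For the mean of both clones it called 8 of 21 tested cholesterol genes, 3 of 7 glutathione genes and 2 of 19 transcription factors. It called 38 neighbouring genes in place of 96. Of all genes, that test called 8.56% higher and 12.3% lower for the mean. With the median of each chromosome removed, 1 transporter was called higher in clone 1, and of other ABC genes 2 were higher in clone 2, 1 in clone 1 and 1 for the mean, with 5 lower in clone 1 and 5 for the mean. With only the groups compared, 2 transporters were lower between the clones.

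Signs turned for values that were mostly near 0. The exception was Abca3 in clone 1, at 0.49 and called in the main fit. The chromosome 17 median that was removed there was 0.55. With chromosome medians removed, Abca3 was at -0.060 in clone 1 and 0.34 between the clones, Abcc4 at 0.20 in clone 1, and Abcg1 at -0.31 for the mean. Abcc4 in clone 1 was at 0.032 with no count filter, and Abcg1 for the mean at -0.018 with upper-quartile scaling. With each library left out, Abca3 between the clones ranged from -0.11 to 0.0012 (without clone 1 replicate 1), Abcb1a in clone 1 from -0.030 (without WT replicate 2) to 0.29, and Abcg1 for the mean from -0.040 (without WT replicate 2) to 0.14, with -0.034 without clone 1 replicate 1 and -0.030 without clone 2 replicate 2. The cause was not tested.

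With each library left out in turn, transporters called higher numbered 4 to 6 in clone 2, 1 to 2 in clone 1, 3 to 4 for the mean and 2 to 6 between the clones, and those lower 3 to 4 against WT and 0 to 2 between the clones. Without WT replicate 2 the lower count fell because Abca1 could not be tested. Abcc1 for the mean was lost without WT replicate 1 (edgeR adjusted p = 0.0548) and without clone 1 replicate 2 (0.0562). Other ABC genes called higher numbered 2 to 5 in clone 2, with 2 without clone 2 replicate 2, and 2 to 5 in clone 1, with 5 without WT replicate 2. Those lower in clone 1 numbered 5 to 9, with 5 without WT replicate 2.

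Replicate numbers did not pair the libraries: deviations of same-numbered libraries correlated across genes at 0.0819 for clone 2 with WT, -0.156 for clone 1 with WT and 0.00474 between the clones. A replicate block left the transporters at 4 higher and 4 lower for the mean and changed no transporter call, while 7389 genes in all were called, against 7673 without the block. Depth limits Abca1 and Abcb1a, which rest on at most 29 and 7 reads in WT.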

Other observations

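Reads on the strand opposite to Abca3, where D330041H03Rik overlaps it, made up 3.86% and 4.23% of the stranded reads of the locus in clone 2, 5.38% and 5.82% in clone 1, and 12.0% and 10.1% in WT. In CPM they were 3.89 and 3.93 in clone 2, 5.69 and 5.71 in clone 1, and 8.19 and 8.56 in WT, with no overlap between groups. D330041H03Rik itself had a log2 fold change of -1.17 (edgeR adjusted p = 8.81e-05) in clone 2 and -0.38 (adjusted p = 0.0725) in clone 1, while Abca3 was higher in both. On the opposite strand of the other transporters the level was at most 0.705 CPM in any library.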
